A study of Mus musculus with 2 samples.

Results

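CD3-transcript lymphocytes were the small set of liver cells in the LSM library that carried transcripts of the CD3 chains of the T cell receptor complex. They were selected on their own counts, as barcodes of that library in which 500 or more genes were detected, no more than 10% of UMIs were mitochondrial, Cd3d, Cd3e and Cd3g together had at least 2 UMIs, and the class II gene H2-Ab1 had at most 2. A UMI (unique molecular identifier) is a tag that marks a single captured RNA molecule, so that a UMI count is a count of molecules. The rule found 80 cells among the 3065 LSM barcodes that passed the filters on genes and mitochondrial UMIs, a share of 2.61% (exact binomial 95% interval 2.07 to 3.24%), and the series held 4313 such barcodes in all. Because the members were chosen by these counts, the CD3 and H2-Ab1 values below describe the choice and are not findings.

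The series profiled sorted cells of adult C57BL/6 mouse liver, aged 7-10 weeks, by droplet single-cell RNA sequencing, with 1 library for each of 2 sorting gates. The LSM gate took CD45+Lin- cells positive for Sca-1 and Mac-1, and the other gate took CD45+Lin- cells positive for CD122 and CD49a. The labels name no treatment or mutation. The number of animals pooled for a library and the antibodies that made up the lineage (Lin) cocktail are not given in the sources used here. With 1 library per gate there is no replicate check. No p-value is given, and the 95% intervals of ratios and shares cover counting error only, although the UMIs of a gene gather in a few cells.

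A T cell detects antigen through a receptor that signals by way of the CD3 chains, and the coreceptors CD8 and CD4 bind class I and class II MHC molecules. Cytotoxic CD8 T cells kill target cells with granzymes released from granules and secrete interferon gamma and chemokines such as Ccl5. Regulatory T cells, most of which carry CD4 and the factor Foxp3, restrain other lymphocytes, and the liver is rich in CD8 T cells, NKT cells, NK cells and ILC1.

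The name under which these cells were set apart was cytotoxic lymphocytes, and in these data the name held for a part of them. Of the markers that came with the name, Cd3d was found in 74 and Cd3g in 75 of the 80 cells. The rule counts both, so these shares describe the choice. Gzma was found in 41 cells, and no Gzma UMI was seen in the other 39. Cd8b1 was found in 41 of the 80 cells, Klrg1 in 20 and Gzmk in 15. The cytotoxic transcripts lay mostly in the cells with a Cd8a or Cd8b1 UMI, while most cells without one lacked them, so the whole set is called CD3-transcript cells here.

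Upstream sequences are shown for 4 genes on which the description turns: Cd3d and Cd3g, whose UMIs made up nearly all of the CD3 count, and the granzyme genes Gzma and Gzmk, which set the cytotoxic cells apart. Each is the 250 bases before the RefSeq gene start on the GRCm38.p6 assembly, written 5′ to 3′ in the direction of the gene. Capitals mark matches to the core letters bound by 3 families of lymphocyte factors: TGTGGT for RUNX, GGAAG for ETS and GTGTGA for T-box factors, each searched on both strands, so that a match on the opposite strand appears as ACCACA for RUNX, as CTTCC for ETS and as TCACAC for T-box factors.
Cd3d, chr9:44981536-44981785, plus strand: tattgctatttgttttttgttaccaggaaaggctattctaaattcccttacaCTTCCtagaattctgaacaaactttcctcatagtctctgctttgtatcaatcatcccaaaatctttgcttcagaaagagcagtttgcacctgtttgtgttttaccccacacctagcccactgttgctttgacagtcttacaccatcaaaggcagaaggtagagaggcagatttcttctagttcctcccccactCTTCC
Cd3g, chr9:44980432-44980681, minus strand: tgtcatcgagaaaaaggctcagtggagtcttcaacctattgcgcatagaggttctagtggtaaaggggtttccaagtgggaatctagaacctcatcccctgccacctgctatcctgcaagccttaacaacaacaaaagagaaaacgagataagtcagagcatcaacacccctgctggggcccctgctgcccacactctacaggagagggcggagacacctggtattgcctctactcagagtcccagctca
Gzma, chr13:113100982-113101231, minus strand: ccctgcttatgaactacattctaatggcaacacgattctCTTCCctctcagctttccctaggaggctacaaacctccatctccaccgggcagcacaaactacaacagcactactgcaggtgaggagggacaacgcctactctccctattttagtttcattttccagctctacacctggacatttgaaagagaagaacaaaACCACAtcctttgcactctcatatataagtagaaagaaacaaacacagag
Gzmk, chr13:113180966-113181215, minus strand: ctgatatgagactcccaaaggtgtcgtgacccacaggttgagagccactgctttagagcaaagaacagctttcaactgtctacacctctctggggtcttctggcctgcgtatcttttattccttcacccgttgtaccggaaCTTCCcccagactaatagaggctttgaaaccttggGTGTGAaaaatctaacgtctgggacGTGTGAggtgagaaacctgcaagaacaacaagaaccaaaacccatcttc
A check of the RefSeq starts against GENCODE transcripts found the bases that follow the start for Cd3d, Cd3g and Gzma but not for Gzmk, so the Gzmk start, and the place of its matches relative to it, is less certain. The Cd3d and Cd3g starts lie 1355 bases apart on opposite strands and point away from each other. The Cd3d window held 2 ETS letter matches, the Gzma window 1 RUNX and 1 ETS match, and the Gzmk window 1 ETS and 2 T-box matches, while these letters were not found in the Cd3g window. No matches overlapped. Among all 32851 windows of the same length in the table, TGTGGT was found in 14.0%, GGAAG in 64.1% and GTGTGA in 12.3%, so a match is a description of the letters and not of a bound site. The table has no entry for Cd8b1, Klrg1 or Ccl5.

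The LSM matrix listed 3133 barcodes with 16226070 UMIs and a median of 5032 UMIs per barcode, and the CD122+CD49a+ matrix 1655 barcodes with 2632303 UMIs and a median of 1215. The CD3-transcript cells held 205375 UMIs together. Their UMIs per cell had a lowest value of 849, a median of 2344 and a highest value of 12512, against a median of 5175 in the other 2985 LSM cells. Levels are therefore given as CPM, the UMIs of a gene per 1000000 UMIs of the summed population, and shares of cells with a UMI are also given after every cell was thinned to 1000 UMIs. A total of 3 cell barcodes occurred in both libraries, and none of them belonged to the 80 cells.

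Cd3d and Cd3g, the delta and gamma chains, each had 298 UMIs in the 80 cells, and Cd3e, the epsilon chain, had 55. At least 2 of the 3 genes were detected in 73 cells and all 3 in 37. The rule had a lower edge that few cells crossed: 6 LSM cells had exactly 2 CD3 UMIs and 15 had exactly 1. Of the 6 cells just inside, 3 had a UMI of Lat, the adaptor that couples the receptor to its kinases, 3 of Ccl5 and 2 of Gzma. Of the 15 cells just outside, 5 had a UMI of Lat, 7 of Ccl5 and 3 of Gzma. At the H2-Ab1 edge, 74 of the 80 cells had no H2-Ab1 UMI and 6 had 1 or 2, while the 5 cells left out by that limit had 7 to 71 H2-Ab1 UMIs and a median of 12245 UMIs in all.

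By coreceptor, 46 of the 80 cells had a Cd8a or Cd8b1 UMI (57.5%, 45.9 to 68.5%), 3 had a Cd4 UMI (3.75%) and 31 had neither (38.75%, 28.1 to 50.3%). No cell had both. Among the 46 cells of the CD8 class, 29 had UMIs of both chains, 12 of Cd8b1 alone and 5 of Cd8a alone, and Cd8b1 encodes the beta chain that marks conventional CD8 T cells. With each cell thinned to 1000 UMIs, 41 of 79 cells (51.9%) kept a CD8 UMI and 37 had neither, so cells without CD8 and cells in which CD8 was not detected cannot be told apart.

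**Figure D1:**
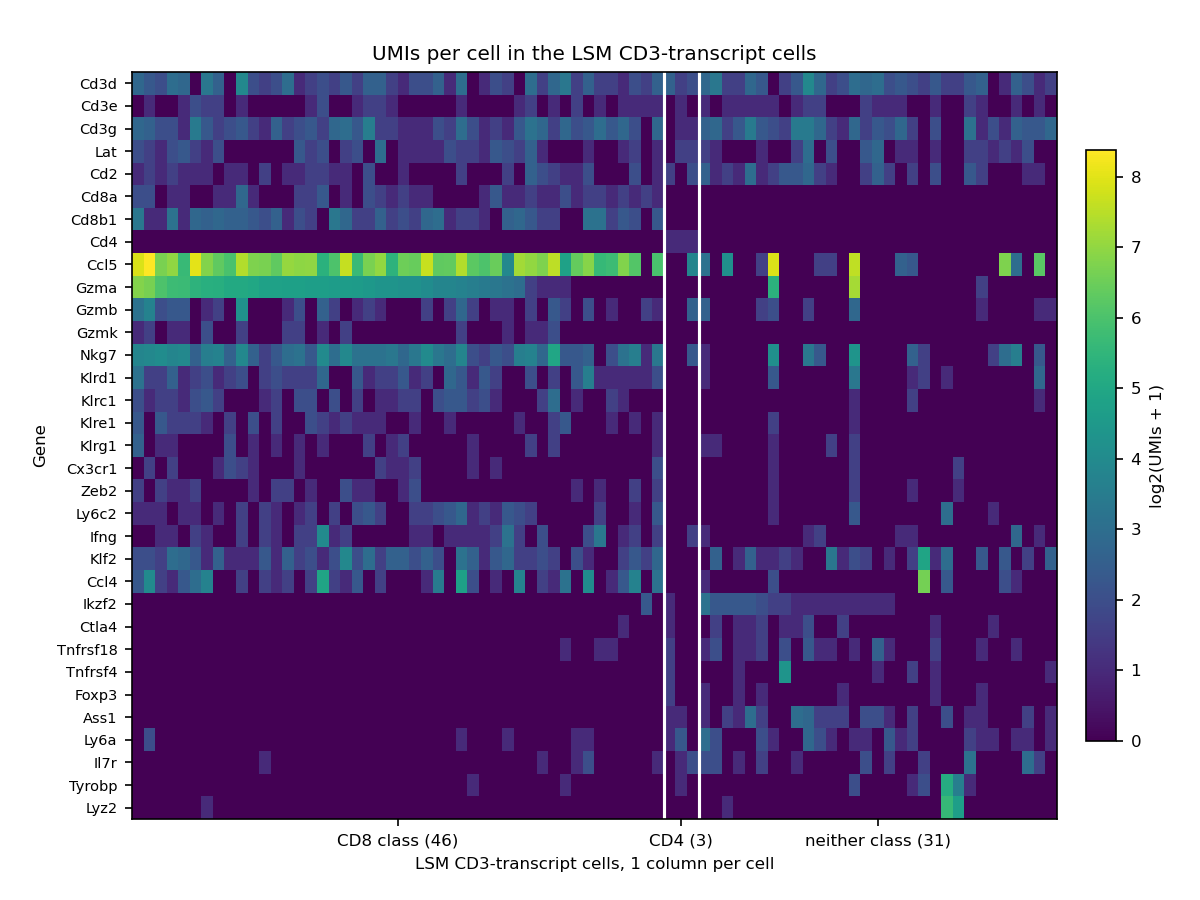
UMIs per cell, as log2(UMIs + 1), of 33 genes (rows) in the 80 CD3-transcript cells of the LSM library (columns), with white lines between the CD8, CD4 and neither classes; within the CD8 class cells are ordered by Gzma and within the neither class by Ikzf2. Ccl5 and Gzma fill most of the CD8 class, whereas Ikzf2, Tnfrsf18 and Ass1 lie in the neither class, and 2 cells there carry 41 and 152 Gzma UMIs.

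The CD8 class was led by Ccl5, a chemokine that draws T cells and monocytes, and by Gzma, the tryptase-like granzyme. Ccl5 had a lowest value of 0, a median of 96.5 and a highest value of 331 UMIs per cell in the CD8 class, against 0, 0 and 242 in the neither class. At least 20 Ccl5 UMIs were found in 44 of 46 CD8 cells and in 4 of 31 neither cells. The classes overlapped for Ccl5 through those few neither cells and the low end of the CD8 class.
Gzma had a lowest value of 0, a median of 18.5 and a highest value of 112 UMIs per cell in the CD8 class, against 0, 0 and 152 in the neither class. Its distribution over the 80 cells had a gap: 39 cells had 0, 5 had 1 to 6, and 36 had 7 or more, of which 34 were CD8 cells and 2 neither cells.
Nkg7, a granule membrane protein needed for degranulation, had 0, 8 and 30 UMIs per cell as lowest, median and highest value in the CD8 class, against 0, 0 and 19 in the neither class.

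Summed over cells, Ccl5 reached 49360 CPM in the CD8 class and 6667 CPM in the neither class, a ratio of 7.40 (6.82 to 8.04). Gzma had 1021 UMIs in the CD8 class and 195 in the neither class, a ratio of CPM of 5.20 (4.46 to 6.09). Both ratios rest on 2 cells: 193 of the 195 Gzma UMIs of the neither class came from the 2 cells with 152 and 41, which also held 430 of its 660 Ccl5 UMIs. Without them, which was decided after seeing the data, Gzma had 2 UMIs in 29 neither cells and the ratio was 474 (131 to 3923), and Ccl5 had 230 UMIs and a ratio of 19.9 (17.4 to 22.8). Other ratios of the CD8 over the neither class were also higher without these cells: 8.08 for Nkg7 (4.79 with them), 4.46 for Ctsw (2.80 with them) and, for genes given below, 7.44 for Gzmb, 9.04 for Klrd1, 10.7 for Klrk1 and for Cx3cr1, 5.81 for Klrg1, 13.5 for Zeb2 and 7.20 for Ly6c2. Those 2 cells had no Cd8a or Cd8b1 UMI but carried Ccl5 (188 and 242 UMIs), Nkg7 (19 and 17) and Klrd1 (9 and 4), all within the range of the CD8 class. They also had 1 and 2 UMIs of Ikzf2, a gene of the neither class described below. The cell with 152 Gzma UMIs lay above the highest CD8 cell, at 112. It also had 12 UMIs of Fcer1g and 3 of Tyrobp, adaptor genes described below. Their highest values in the CD8 class were 9 and 1.

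Across all genes, 1192 were compared between the CD8 and neither classes, meaning that they had at least 20 UMIs in both together, and 7.89% of them were at least 2-fold higher and 8.64% at least 2-fold lower in the CD8 class, with a median log2 ratio of -0.04. Of the 7 compared genes of a list of cytotoxic granule and death ligand genes, 5 were at least 2-fold higher in the CD8 class (Gzma, Gzmb, Gzmk, Nkg7 and Ctsw) and none was at least 2-fold lower, with a median log2 ratio of 2.18. The summed level of the whole list was 17510 CPM in the CD8 class and 5516 CPM in the neither class, against 1318 CPM in other LSM cells. Gzmb, the granzyme that cleaves caspases, had 96 UMIs in the CD8 class and 21 in the neither class, a ratio of 4.54. Gzmk, a granzyme typical of memory and ageing CD8 T cells, had 25 UMIs in the CD8 class and 0 in the neither class, which makes it at least 8.28-fold higher when the 0 is set at a floor of 3 counts over the class. Perforin transcripts were nearly absent from the 80 cells, since Prf1 had 3 UMIs in 3 of them.

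Receptors shared with NK cells followed the same split. Of the 7 compared genes of an NK cell and ILC1 receptor list, 4 were at least 2-fold higher in the CD8 class (Klrk1, Klrc1, Klrd1 and Klre1) and 2 were at least 2-fold lower, namely the adaptors Tyrobp and Fcer1g that lie downstream of activating NK receptors. Klrc1, which encodes the inhibitory receptor NKG2A, had 68 UMIs in the CD8 class and 4 in the neither class, a ratio of 16.9 (6.30 to 63.8). Klre1 had 45 and 3 UMIs, a ratio of 14.9, and Klrd1, the CD94 partner of NKG2A, had 107 and 24 UMIs, a ratio of 4.43. Klrk1, the NKG2D receptor for stress ligands, had 46 and 9 UMIs, a ratio of 5.08. The lower ratios of Tyrobp and Fcer1g rested on 2 cells of the neither class with many Lyz2 UMIs, described below. Fcer1g had 16 UMIs in the CD8 class and 45 in the neither class, of which those cells held 33, and without them its ratio was 1.12 (0.499 to 2.60). The 12 Fcer1g UMIs then left in the neither class all came from 1 cell, the one with 152 Gzma UMIs.

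Genes of effector differentiation were higher in the CD8 class in 5 of 12 compared cases (Klrg1, Cx3cr1, Zeb2, Id2 and Ccl5), lower in none, with a list median log2 ratio of 0.81. Zeb2, a repressor that drives terminal effector differentiation, had 29 UMIs in the CD8 class and 5 in the neither class, a ratio of 5.76. Cx3cr1, the fractalkine receptor of blood-borne effector T cells, had 23 and 5 UMIs, a ratio of 4.57, and Klrg1, an inhibitory receptor of late effector cells, had 25 and 7, a ratio of 3.55. Ifng had 70 UMIs in the CD8 class and 13 in the neither class, a ratio of 5.35, and Ly6c2, a surface protein of memory CD8 T cells and monocytes, had 62 and 13, a ratio of 4.74. Runx3, the factor that installs the CD8 lineage, had 29 and 8 UMIs, a ratio of 3.60, and the kinase Jak1 45 and 9, a ratio of 4.97. Smaller ratios were seen for Klf2, which keeps T cells in circulation, at 1.74 and for Lat at 1.79. The chemokine Ccl4 had 197 UMIs in the CD8 class and 110 in the neither class, a ratio of 1.78, but 98 of the 110 came from 1 neither cell, and without it the ratio was 15.4 (8.63 to 30.3). That cell also held 29 of the 86 Klf2 UMIs of the neither class. Without it the Klf2 ratio was 2.49 (1.82 to 3.43). Its only CD3 transcripts were 2 Cd3d UMIs, and it had no Lat UMI. The master regulators were sparse: Tbx21 had 5 UMIs in the 80 cells and Eomes had 0.

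**Figure D2:**
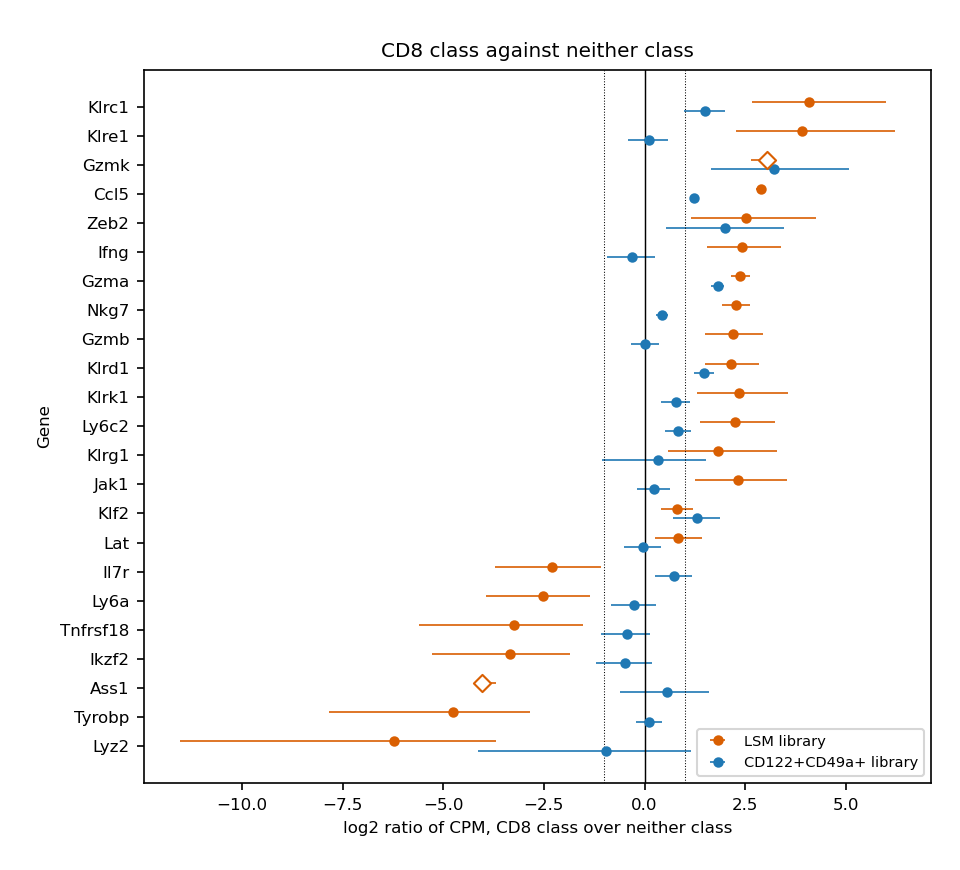
Log2 ratio of CPM of the CD8 class over the neither class for 23 genes in the LSM library (orange) and in the CD122+CD49a+ library (blue), with lines for 95% counting intervals, open diamonds for bounds where 1 class had 0 UMIs (set at 3 counts), and dotted lines at 2-fold. Klrc1, Ccl5, Gzma and Klrd1 lie right of 0 in both libraries, while Ifng, Il7r and Ass1 lie on opposite sides of 0 in the libraries.

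Within the CD8 class Gzma was detected in 38 of 46 CD8 cells. Klrg1 was detected in 15 of 46, of which 14 were among the 38 cells with Gzma and 1 among the 8 without, and Gzmk was detected in 15 of the 38 and in none of the 8. Gzmb was detected in 24 of the 38 and 4 of the 8, and Ifng in 22 of the 38 and 5 of the 8. Cx3cr1 was detected in 8 of the 15 cells with Klrg1 and in 6 of the 31 without. With 8 cells in the smaller set, the exact binomial intervals of these shares overlapped, as for Klrg1 at 21.8 to 54.0% with Gzma and 0.316 to 52.7% without.

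The neither class carried another set of transcripts. Of the 3 compared genes of a regulatory T cell list, all 3 were at least 2-fold lower in the CD8 class: Ikzf2 with 4 UMIs in the CD8 class and 40 in the neither class (ratio 0.0993), Tnfrsf18 with 3 and 28 (0.106), and Tnfrsf4 with 0 and 25. Ikzf2 encodes the factor Helios, and Tnfrsf18 and Tnfrsf4 the costimulatory receptors GITR and OX40. The Tnfrsf4 count rested mainly on 1 cell with 19 of the 25 UMIs. The list summed to 110 CPM in the CD8 class and 1313 CPM in the neither class, against 99.2 CPM in other LSM cells.

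By cells, Ikzf2 was detected in 1 of 46 CD8 cells and 17 of 31 neither cells, Tnfrsf18 in 3 of 46 and 15 of 31, and Ctla4, an inhibitory receptor of regulatory and activated T cells, in 1 of 46 and 10 of 31. Foxp3 was detected in 0 of 46 CD8 cells and 6 of 31 neither cells, and it had no UMI in the other LSM cells. At least 2 of these 5 genes (Foxp3, Ikzf2, Ctla4, Tnfrsf18, Tnfrsf4) occurred in 0 of 46 CD8 cells and 16 of 31 neither cells. Gata3, a factor of type 2 helper cells, ILC2 and a part of regulatory T cells, was detected in 3 of 46 CD8 cells and 9 of 31 neither cells. The class was not uniform, since 8 of its 31 cells had none of the 5 genes, 5 of them no Ass1 UMI either, and 12 UMIs of Il4 lay in 2 of its cells.

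Ass1, the urea cycle enzyme argininosuccinate synthase, was a further mark of the neither class, with 0 UMIs in the CD8 class and 49 in the neither class. It was detected in 19 of 31 neither cells, among them 13 of the 17 with Ikzf2 and 6 of the 14 without. The hepatocyte marker list had 0 UMIs in all 80 cells. It had only 2.57 CPM in the other LSM cells, below the 14.6 CPM that 3 counts equal in the 80 cells, so this 0 says little. The source of the Ass1 UMIs was not tested. Il7r, the interleukin 7 receptor chain, had 7 UMIs in the CD8 class and 34 in the neither class, a ratio of 0.205. Ifi27l2a, an interferon-stimulated gene, reached 712 CPM in the CD8 class and 3475 CPM in the neither class, also a ratio of 0.205. Ly6a, which encodes the Sca-1 protein of the sort, had 7 UMIs in the CD8 class and 40 in the neither class, a ratio of 0.174.

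The 3 cells of the CD4 class had 1 Cd4 UMI each and no Gzma UMI. Their totals were 1482, 3019 and 2229 UMIs. One of them held 2 UMIs of Foxp3, 1 of Ikzf2 and 2 of Tnfrsf18, and another held 13 UMIs of Ccl5, 5 of Gzmb and 2 of Ifng, so the class did not share a pattern. At 3 cells it is not compared further.

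**Figure D3:**
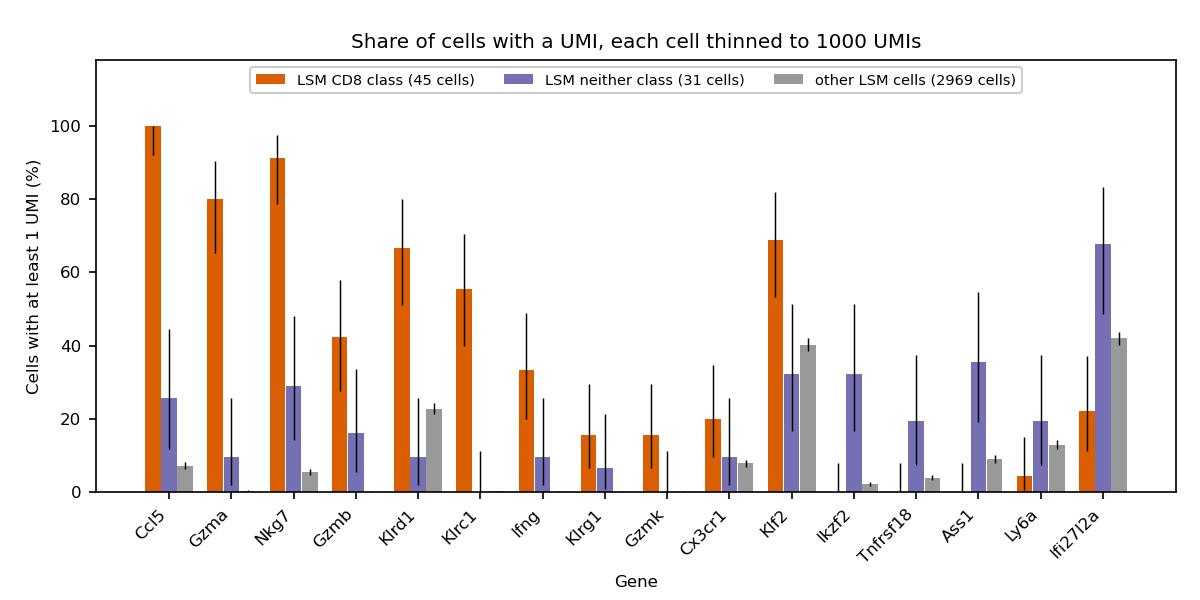
Share of cells with at least 1 UMI after thinning each cell to 1000 UMIs, for 16 genes in the LSM CD8 class (orange, 45 cells), the LSM neither class (purple, 31 cells) and other LSM cells (grey, 2969 cells), with exact binomial 95% intervals as lines. Ccl5, Gzma and Nkg7 are found in 80% or more of the CD8 class, and Ikzf2, Tnfrsf18 and Ass1 in none of its 45 cells. The CD8 cell left out, with 849 UMIs, had 4 Ikzf2 UMIs and 0 of Ccl5.

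The classes were also apart at equal depth. Thinning left out the 1 CD8 cell under 1000 UMIs, which had 849. It was the only CD8 cell with Ikzf2 UMIs, 4 of them, and the only one without a Ccl5 UMI. In cells thinned to 1000 UMIs, Gzma was found in 80.0% of the CD8 class (65.4 to 90.4%), 9.68% of the neither class (2.04 to 25.8%) and 0.37% of other LSM cells. Ccl5 was found in 100% of CD8 cells (92.1 to 100%), 25.8% of neither cells and 7.17% of other LSM cells. Klrc1 was found in 55.6% of CD8 cells, 0 of 31 neither cells and 0.168% of other LSM cells. The CD8 shares of these 3 genes lay above those of the other LSM cells, whose own expression and free RNA were not told apart. Ikzf2 was found in 0 of 45 CD8 cells, 32.3% of neither cells (16.7 to 51.4%) and 2.09% of other LSM cells, and Ass1 in 0 of 45, 35.5% and 9.06%. For Klrd1 the neither class, at 9.68%, was below the 22.8% of other LSM cells, and for Cx3cr1 the neither class, at 9.68%, was close to their 7.81%.

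Against the other LSM cells, 2613 of which had a UMI of the class II invariant chain Cd74, the 80 cells were set apart by T cell and cytotoxic genes. Of 8625 genes compared, 17.2% were at least 2-fold higher and 14.3% at least 2-fold lower in the CD3-transcript cells, with a median log2 ratio of 0.08. Of genes whose expected count in the 80 cells was at least 5, the shares were 5.48% and 19.2%, because a gene with few UMIs can pass only by being high in the small population. The rule split the cells by their own T cell transcripts, so list counts in this comparison describe the cells and nothing is read from them.

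Of the 15 compared genes of T cell receptor signalling other than the CD3 chains of the rule, 14 were at least 2-fold higher and none lower, with a median log2 ratio of 5.58. Lat had 116 UMIs in the CD3-transcript cells and 181 in the other LSM cells, a ratio of CPM of 49.8 (39.1 to 63.3). Cd2, an adhesion receptor of T and NK cells, had 111 and 31 UMIs, a ratio of 278, and Thy1 had 43 and 14, a ratio of 239. Cd247, the zeta chain of the receptor complex, had 37 and 10 UMIs, a ratio of 288, and Lck, the kinase that phosphorylates it, 69 and 234, a ratio of 22.9. Bcl11b, which commits progenitors to the T lineage, had 26 and 5 UMIs, a ratio of 404, and the signalling adaptor Sh2d1a 52 and 7, a ratio of 578. All 8 Gimap GTPases, which support lymphocyte survival, were at least 2-fold higher, with a median log2 ratio of 3.71.

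Of the 12 compared cytotoxic genes, 7 were at least 2-fold higher in the CD3-transcript cells and none lower. Gzma reached 5921 CPM in the CD3-transcript cells and 6.57 CPM in the other LSM cells, a ratio of 901 (737 to 1110). It was detected in 41 of the 80 cells and in 30 of the other 2985. Gzmb had 122 UMIs in the CD3-transcript cells and 12 in the others, a ratio of 791, and Gzmk 25 and 3, a ratio of 648 (198 to 3354). Ccl5 was far higher in the CD3-transcript cells, at 27228 CPM against 612 CPM in the others, and Nkg7 had 476 and 1145 UMIs, a ratio of 32.3.

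Among cytokines and chemokines 7 of 11 compared genes were at least 2-fold higher and none lower. Ifng had a ratio of 1322 (545 to 4176), with 85 UMIs in the CD3-transcript cells and 5 in the others. Klrg1 had 32 and 2 UMIs, a ratio of 1244 (317 to 10716), and Klrc1 72 and 13, a ratio of 431. Cxcr6, a chemokine receptor that holds lymphocytes in the liver sinusoids, had 31 and 5 UMIs, a ratio of 482. Ccl4, by contrast, was at a like level in both, with a ratio of 0.942 (0.839 to 1.05), and Ccl3 had a ratio of 0.516. Both are also products of myeloid cells, and 49 of the 83 Ccl3 UMIs of the CD3-transcript cells came from 1 neither cell, which held 98 Ccl4 UMIs too.

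Of 11 proliferation genes none was at least 2-fold higher and 4 were lower, and of 10 immediate early genes, which dissociation can induce, none was higher and 4 were lower. Of 6 regulatory T cell genes 5 were higher, with a median log2 ratio of 2.83.

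**Figure D4:**
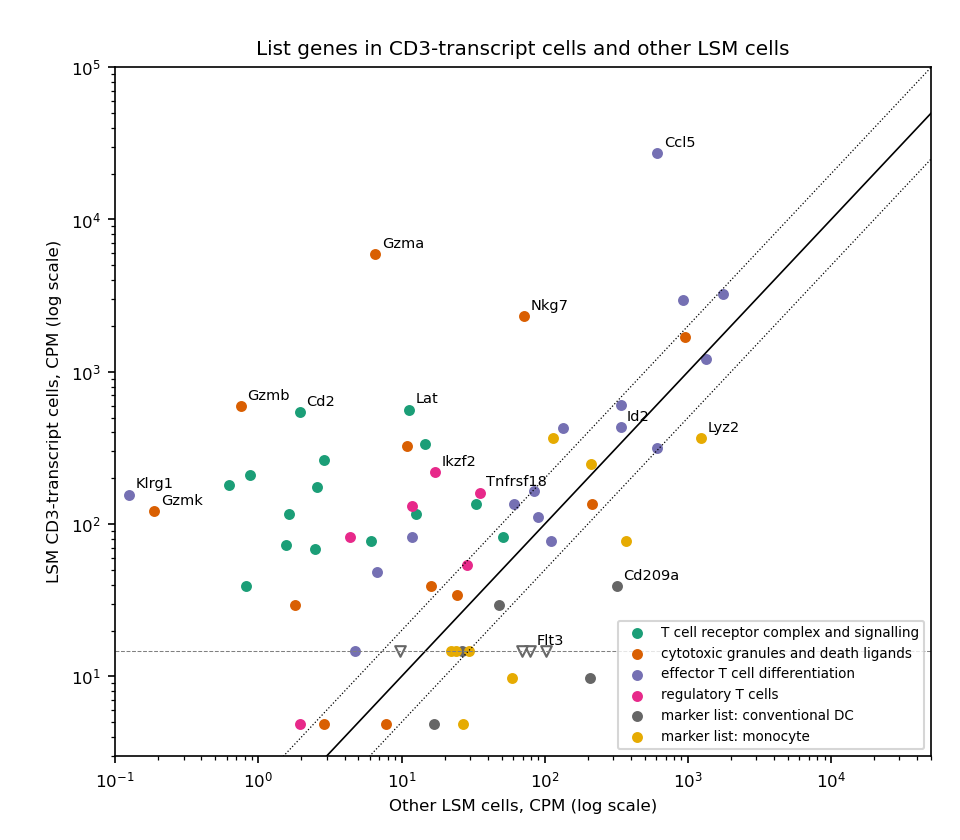
CPM of the compared genes of 6 lists in the 80 LSM CD3-transcript cells (vertical, log scale) against the other 2985 LSM cells (horizontal, log scale), coloured by list, with a solid line at equality and dotted lines at 2-fold; open triangles are genes with 0 UMIs in the CD3-transcript cells, drawn at their floor of 14.6 CPM (dashed line, 3 counts). Of the lists drawn, Klrg1, Gzma, Gzmb and Gzmk lie far above the line, and the dendritic cell genes lie on or under it.

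The genes lower in the CD3-transcript cells were those of antigen-presenting and plasma-like cells. H2-Aa had 3 UMIs in the CD3-transcript cells and 60138 in the others, a ratio of 0.00388, but it belongs to the same class II complex as the H2-Ab1 of the rule. H2-Eb1 had 6 and 69192 UMIs, a ratio of 0.00674, and Cd74 45 and 216577, a ratio of 0.0162. Both are class II presentation genes too, so the H2-Ab1 limit of the rule bears on them as well. Jchain, the joining chain of secreted antibodies that plasmacytoid dendritic cells also express, had 4 and 49848 UMIs, a ratio of 0.00624, and Mzb1, a chaperone of antibody-secreting cells, 1 and 4534, a ratio of 0.0172. The remaining named genes, Ifi205, Ccnd1, Plbd1, Cxcl9, AF251705, Naaa and Cox6a2, had 1 to 3 UMIs each in the CD3-transcript cells and ratios of 0.0275 to 0.0328. Cd74 still had a UMI in 28 of the 80 cells, against 2613 of the other 2985, and whether these UMIs were free RNA was not tested.

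The summed marker lists of other cell types were lower in the 80 cells than in the other LSM cells. The class II list summed to 404 CPM in the CD3-transcript cells and 23023 CPM in the others. The rule limited H2-Ab1, a gene of the same complex, so this value describes the choice. The monocyte list differed less, at 1115 and 2095 CPM, and 54 of the 80 cells had a UMI of it. The mast cell, erythroid and hepatocyte lists had 0 UMIs in the 80 cells. In the others the erythroid and hepatocyte lists had 12.6 and 2.57 CPM, below the 14.6 CPM that 3 counts equal in the 80 cells. Lyz2, a lysozyme of myeloid cells, had 75 UMIs in the CD3-transcript cells, of which 73 came from 2 neither cells with 48 and 25. Those cells also held 46 of the 57 Tyrobp UMIs, their only CD3 transcripts were 2 Cd3d UMIs each, and their totals were 12512 and 2425 UMIs. Without them, a choice made after seeing the data, the log2 ratio of Lyz2 in the CD8 class over the neither class was -0.25, against -6.22 with them, and that of Tyrobp -2.25 against -4.76. Those of Gzma (2.14 against 2.38) and Ikzf2 (-3.57 against -3.33) changed less. None of the 80 cells was among the 77 LSM barcodes with the highest doublet scores. The caller called 0.457% of LSM barcodes, under the 0.5% at which it is taken to work. Its scores therefore do not show whether doublets were among the 80 cells.

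The sort and the transcripts met only in part. Ly6a, for Sca-1, was detected in 5 of 46 CD8 cells and 18 of 31 neither cells. Itgam, for Mac-1, was detected in 2 of the 80 cells, and no cell had UMIs of both. A missing UMI of a lowly expressed gene does not show that the protein was absent.

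The CD122+CD49a+ library held 626 CD3-transcript cells by the same rule among 1248 barcodes, a share of 50.2% (47.3 to 53.0%), against 2.61% in the LSM library. By coreceptor, the CD8 class took 57.5% of the LSM CD3-transcript cells and 17.3% (14.4 to 20.4%) of the CD122+CD49a+ ones, at medians of 2344 and 1323 UMIs per cell. Sorting gate and library cannot be told apart. Some ratios between the libraries are therefore set beside the same ratio in the remaining cells of both libraries. Ratios given alone do not show whether the remaining cells shifted alike. Of 5674 genes compared, 7.19% were at least 2-fold higher and 26.9% at least 2-fold lower in the LSM CD3-transcript cells, with a median log2 ratio of -0.29. The median log2 ratio of the remaining cells was -0.25.

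Gzma reached 5921 CPM in LSM CD3-transcript cells and 1290 CPM in CD122+CD49a+ CD3-transcript cells, and after thinning to 1000 UMIs it was found in 49.4% and 14.8% of cells. Ccl5 went the other way by cells, with 68.4% in LSM and 93.9% in CD122+CD49a+ cells. Klrg1 had 32 UMIs in each library, a ratio of CPM of 4.62 (2.74 to 7.79). Il2rb, which encodes the CD122 of the other gate, had 2 UMIs in LSM and 497 in CD122+CD49a+ CD3-transcript cells, a ratio of 0.0186, and was found in 0 of 79 LSM and 39.0% of CD122+CD49a+ cells after thinning. Bcl2, the survival factor, had 3 and 252 UMIs, a ratio of 0.0550, against 0.375 in the remaining cells.

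Several of the genes with the highest or lowest ratios shifted in the remaining cells too. Ccl4 had a ratio of 17.7 (13.8 to 23.0) in the CD3-transcript cells and 21.9 in the remaining cells, Ccl3 12.8 (with 49 of its 83 UMIs in the 1 LSM cell named above) and 19.9, and Lars2, a mitochondrial tRNA synthetase, 0.0633 and 0.0564. For these genes the shift between the libraries was of like size in CD3-transcript cells and in the rest. Klf2 had a ratio of 9.36 (7.47 to 11.8) in the CD3-transcript cells and 2.79 in the remaining cells, Zeb2 8.27 and 0.298, and Ass1 5.89 and 3.14. Zeb2 was thus higher in the LSM library among CD3-transcript cells and lower there among the rest. Lyz2 had a ratio of 19.2, which rests on the 2 Lyz2-rich cells: without them its log2 ratio was -0.85. The remaining named genes were Ifitm3 at 10.6 and Ctss at 6.60, both abundant in myeloid cells, and Fgl2, Podnl1, Rnf225, Tnk2 and Fam102a, with 1 or 2 UMIs each in the LSM cells.

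By list, 8 of 16 compared NK cell and ILC1 genes were at least 2-fold lower in LSM than in CD122+CD49a+ CD3-transcript cells and 1 was higher (Klrc1), with a median log2 ratio of -1.02. Of 15 compared genes of the common gamma chain cytokine receptors and their signalling, 8 were lower and none higher, with a median of -1.22. This list summed to 1066 CPM in LSM and 2110 CPM in CD122+CD49a+ CD3-transcript cells, and to 334 and 664 CPM in the remaining cells. The other gate was sorted on CD122, which Il2rb encodes, and the part of the sort in these values was not tested. Of 18 T cell receptor signalling genes 5 were lower and none higher (median -0.45), and of 11 proliferation genes 7 were lower and none higher (median -1.42). The cytotoxic list was split, with 3 of 12 genes higher (Gzma, Gzmk and Srgn) and 4 lower (Cst7, Serpinb6b, Fasl and Tnfsf10). These counts of lower genes stand against the 26.9% of all genes compared that were lower.

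**Figure D5:**
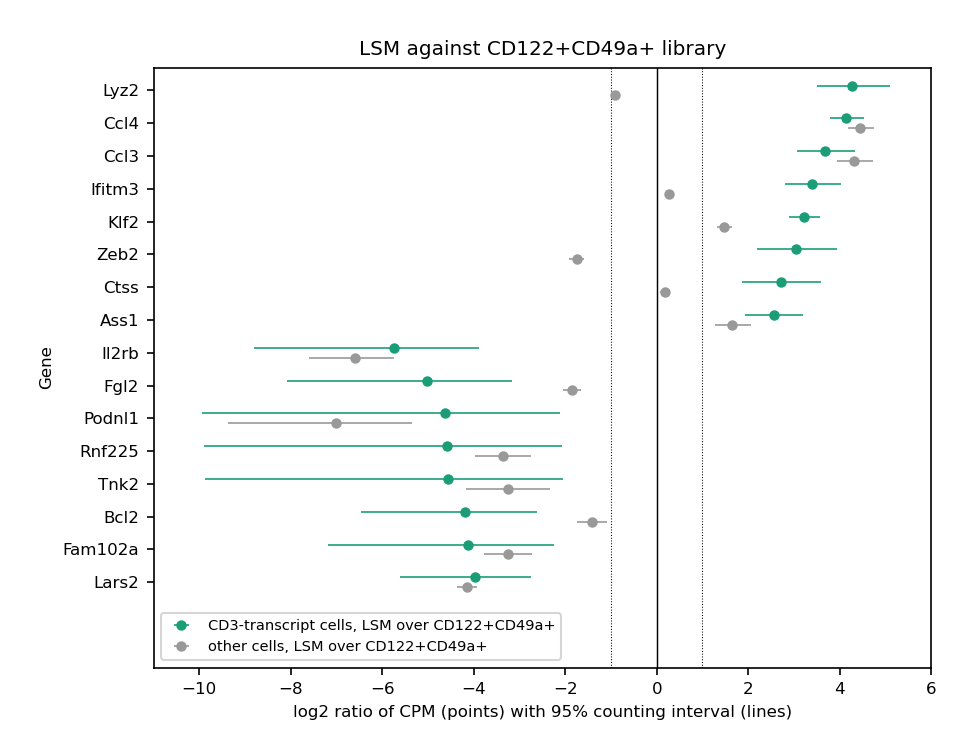
Log2 ratio of CPM of the LSM library over the CD122+CD49a+ library for 16 genes, in CD3-transcript cells (green) and in the remaining cells (grey), with lines for 95% counting intervals and dotted lines at 2-fold. Ccl4, Ccl3 and Lars2 lie at like values in both, whereas Zeb2 and Lyz2 lie on opposite sides of 0.

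Set against the 108 CD8-class cells of the CD122+CD49a+ library, the 46 LSM CD8 cells had higher levels of some effector genes and not of others. Of 15 compared genes of effector differentiation, 3 were at least 2-fold higher (Klrg1, Cx3cr1 and Zeb2) and 2 at least 2-fold lower (Tbx21 and Cd44), with a median log2 ratio of -0.02. Of all 1613 genes compared, 11% were at least 2-fold higher and 9.61% at least 2-fold lower in the LSM CD8 class, with a median log2 ratio of 0.08. Cx3cr1 had 23 UMIs in the LSM CD8 class and 4 in the CD122+CD49a+ CD8 class, a ratio of 10.9 (3.72 to 43.3), against 0.686 in the remaining cells. Klrg1 had 25 and 8 UMIs, a ratio of 5.92, Zeb2 29 and 10, a ratio of 5.49, and Ifng 70 and 30, a ratio of 4.42. Gzma had 1021 and 605 UMIs, a ratio of 3.20 (2.89 to 3.54), and was found in 80.0% and 37% of cells after thinning. Klf2 had a ratio of 6.35 and Ccl4 of 8.29, and both were higher in the LSM library among the remaining cells as well.

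Other genes of the class lay close together in the libraries, with ratios of 1.53 for Nkg7, 0.995 for Ly6c2, 0.824 for Klrd1 and 0.765 for Cxcr6. Lower in the LSM CD8 class were Tyrobp, with 2 UMIs in LSM and 104 in CD122+CD49a+ CD8 cells (ratio 0.0364), Il2rb with 1 and 51 (0.0371), and Il7r with 7 and 60 (0.221). Klra7, an inhibitory Ly49 receptor, had 0 and 42 UMIs. The early response genes Nfkbia and Dusp2 had ratios of 6.94 and 6.05 in the CD8 class, and of 3.19 and 3.30 in the remaining cells. Of 10 immediate early genes 9 were compared, and 6 were at least 2-fold higher in the LSM CD8 class (Fos, Jun, Junb, Jund, Ier2 and Hspa1a), with a median log2 ratio of 1.43. The part of the library in these differences was not tested.

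In the CD122+CD49a+ library, the same split by coreceptor gave smaller ratios of the CD8 over the neither class for several of the genes above. Klrc1 had a ratio of 2.81 there, Gzma 3.51, Klrd1 2.78 and Zeb2 3.99. Nkg7 had a ratio of 1.35, Gzmb of 1.01, Klre1 of 1.07 and Ifng of 0.804. Ikzf2 had a ratio of 0.718 and Ass1 of 1.46, against 0.0993 and an upper bound of 0.0608 in the LSM library. The CD3-transcript cells of that library had the lower median depth given above, and its part in these differences was not tested.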

How the data were processed

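The deposited matrices hold UMI counts per gene and barcode for each library, with 27998 genes; the files' headers name software version 3.0.1, and the submitters' processing notes name STAR, Seurat 2.3.0 and the build GRCm38. The kit protocol is cited in the labels. No source used here says whether the authors removed doublets or free RNA.

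Barcodes were filtered and classed by the stated rule with Python 3.11.15, numpy 2.4.6, scipy 1.17.1, pandas 2.3.3 and scanpy 1.11.5. Counts were summed per population, scaled to CPM and compared as ratios with exact conditional 95% intervals. Genes with at least 20 UMIs in both populations together were compared, and a class at 0 was set at 3 counts. The method was tested on simulated data. These were random counts drawn for each summed population, without UMIs gathered in single cells, so the test does not cover such gathering. Scrublet called 14 LSM barcodes doublets (0.457%), under the 0.5% at which a caller is taken to work, so no barcode was removed and the 77 highest scores were left out as an alternative.

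Named genes were the highest and lowest ratios among genes of sufficient level, 12 each against other LSM cells, 8 between libraries and 6 between classes, plus list genes. The 32 lists of 302 genes, of which 12 had no row (among them Trac, Trbc1, Trbc2 and Trdc), and the member rule were chosen with earlier results of these data known. Alternatives changed the CD3, H2-Ab1 and gene limits, the scaling (TMM of edgeR 4.0.16), the minimum and the thinning. The design implied no test, since each gate has 1 library.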

Additional observations from a re-analysis of the deposited data

Results flagged for a closer look

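The named and list genes with at least 20 UMIs in each library were searched for ratios of the CD8 class over the neither class on opposite sides of 1. The search kept 8 genes whose 95% counting intervals did not reach 1 in either of the 2 libraries, LSM and CD122+CD49a+. They were picked by these values, and the share of such genes among all genes was not counted, so their number is not a finding. In each case the difference between the libraries was not tested, since each gate has 1 library. Higher in the CD8 class of the LSM library and lower in that of the CD122+CD49a+ library were Thy1, a surface protein of T cells and ILC (2.44 and 0.760), the phosphatase Dusp2 (2.81 and 0.659), the kinase Txk (3.48 and 0.457), the transcriptional regulator Id2 (2.21 and 0.559), the chemokine Xcl1 (3.18 and 0.505), the early response gene Junb (1.25 and 0.521) and the heat shock gene Hspa1b (4.37 and 0.515). Il7r ran the other way, at 0.205 among LSM cells and 1.64 among CD122+CD49a+ cells. The Xcl1 ratio of the LSM library rested on few cells. Its 16 UMIs in the CD8 class lay in 3 of 46 cells, with 9 of them in 1 cell, and its 5 UMIs in the neither class in 2 of 31 cells.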

How the results depend on the processing

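Of 1541 alternative values over 167 gene ratios and shares, 1362 stayed within the counting interval of the reported value and 172 moved further. The other 7 changed direction, which was counted only where the reported ratio was at least 2-fold higher or lower. A limit of 1000 genes and 5% mitochondrial UMIs left 28 cells (1.06% of LSM barcodes), of which 39.3% were CD8 and 53.6% neither cells; 818 genes were then lower against other LSM cells, 184 higher and 195 lower between the libraries, 44 higher between the classes, and 57 higher and 39 lower between the CD8 classes, where Il7r (1.15) and Fcer1g (2.37) changed the direction of their log2 ratios. Requiring 1 CD3 UMI gave 186 and requiring 3 gave 65 genes lower in the CD8 than in the neither class, against 103 as reported; at 3 the log2 ratio of Lst1 turned to 0.67 and that of Fcer1g to 0.087. The log2 ratio of Lyz2 between the libraries turned to -0.88 at 3 CD3 UMIs and to -0.85 without the cells with 5 or more Lyz2 UMIs, which also turned that of Fcer1g between the classes to 0.17. Leaving out these cells, the 2 neither cells with most Gzma or the 1 with most Ccl4 was chosen after seeing the data. With TMM factors 643 and with no minimum of UMIs 1315 genes were higher between the libraries, against 408 as reported. The causes were not tested beyond the fewer cells of the stricter filters. No paired analysis was possible because each gate has 1 library and no replicate numbers. The 80 cells set the precision: 3 counts equal 14.6 CPM in them and 30.1 CPM in the CD8 class.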

Other observations

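In the LSM library 0 barcodes under 500 genes met the CD3 rule, whereas 132 did in the CD122+CD49a+ library. Zbtb16, which encodes the NKT cell factor PLZF, had 1 UMI in the 80 LSM cells and 31 UMIs in the 626 CD122+CD49a+ CD3-transcript cells, a ratio of CPM of 0.149. The 6 gamma delta T cell genes with a row had 4 UMIs together in the 80 cells, and receptor constant genes are not analysed here.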
